A study of Drosophila melanogaster with 2 samples.

Results

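The genes described here encode the respiratory chain and ATP synthase of Drosophila melanogaster. They were chosen by name, as nuclear protein-coding genes of the dm6 annotation whose symbol starts with ND- (complex I, NADH dehydrogenase), Sdh (complex II, succinate dehydrogenase), UQCR- (complex III, cytochrome bc1), COX and a digit (complex IV, cytochrome c oxidase) or ATPsyn (complex V, ATP synthase). The rule found 88 of the 13945 protein-coding genes on the chromosome arms X, 2L, 2R, 3L, 3R and 4. Complex I has 40 of them, complex II 8, complex III 9, complex IV 16 and complex V 15. The names also take in an assembly factor of complex II, Sdhaf3, and miss some subunits such as levy and RFeSP. The 13 protein-coding genes of mitochondrial DNA are not included.

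Chromatin immunoprecipitation followed by sequencing was done on wandering larvae of the third instar from a transgenic line, strain jim-GFP, that stably expresses Jim with GFP at its C terminus. Jim is a C2H2 zinc finger transcription factor, and the precipitation used an antibody against GFP. Whole animals of both sexes were pooled, of unknown age beyond the stage, in 1 group of 2 biological replicates, numbered 1 and 3 in the labels, with library size ranges of 175 to 275 bp and 200 to 325 bp. The labels name a possible control experiment, whose values were not used here, and no second condition, so no contrast between conditions was tested. In chromatin from whole larvae, binding in fewer cells and weaker binding per cell cannot be told apart.

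The respiratory chain passes electrons from NADH and succinate through complexes I to IV to oxygen and pumps protons across the inner mitochondrial membrane, and ATP synthase uses that gradient to make ATP. Most subunits are encoded in the nucleus and have to be made in step with the few encoded in mitochondrial DNA. In flies, wandering larvae have stopped feeding and are about to pupariate. Many nuclear respiratory genes of Drosophila have a duplicate, often expressed mainly in the testis, and many share a palindromic DNA word near the start, called the nuclear respiratory gene (NRG) element.

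A gene was called bound when the summit of a region lay within 500 bp of any of its annotated transcript starts. The IDR list is the authors' set of 1476 regions thresholded on the irreproducible discovery rate, and the pooled list and each replicate list hold 30000 regions that include background, so a region of low rank is weak evidence of binding. Signal is the deposited value of each region in the units of the authors' caller. It ran from 65.3 to 529.5 in the IDR list, with a median of 85.9, and the lists have their own scales, so only ranks are compared between lists. The IDR list consists of the strongest regions of the pooled list.

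Jim regions of the IDR list lay at 2 of the 88 respiratory genes, COX5A and ATPsynE. That is 2.27% (95% exact interval 0.276 to 7.97%), against 6.96% of all protein-coding genes, a share at which 6.12 members would have been called. The interval includes the share over all genes, and the difference was not tested. Complexes I, II and III had 0 bound genes, of 40, 8 and 9, and the exact upper limit for 0 of 40 is 8.81%, above the share over all genes. Intervals and limits of this kind cover counting error only.

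The summit sequences of both bound genes, and that of the strongest gene outside the IDR list, ATPsynbeta, are shown to give the sites on which these calls rest. Each holds 101 bases centred on the pooled summit, on dm6 and in the direction of the gene. Capitals mark TATCGATA, the DNA replication-related element (DRE), a word common in promoters of fly housekeeping genes.
COX5A, chr3R:11819480-11819580, plus strand: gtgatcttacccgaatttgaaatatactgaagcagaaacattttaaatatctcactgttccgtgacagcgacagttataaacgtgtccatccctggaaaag
ATPsynE, chr3R:14326974-14327074, plus strand: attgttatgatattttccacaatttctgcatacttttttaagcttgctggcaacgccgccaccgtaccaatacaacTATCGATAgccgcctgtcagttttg
ATPsynbeta, chr4:1031811-1031911, plus strand: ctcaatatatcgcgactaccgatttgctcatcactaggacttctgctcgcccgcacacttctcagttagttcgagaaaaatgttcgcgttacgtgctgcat

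COX5A encodes subunit 5A of cytochrome c oxidase, the enzyme that reduces oxygen, and lies on the plus strand of 3R from 11819359 to 11820299 (FBgn0019624). Its region spanned 11819400 to 11819659, with the summit 69 bp upstream of the nearest COX5A start. That is the inner of 2 annotated starts, so the summit lay inside the gene, downstream of its 5′ end. The pooled signal was 73.3, at rank 1125. In replicate 1 the region ranked 1545 with a signal of 33.9, and in replicate 3 it ranked 950 with a signal of 41.8. COX5A was thus among the 1476 strongest regions of replicate 3 and just outside them in replicate 1. The start of glo, which encodes an RNA-binding protein, lay on the other strand 110 bp from the same summit.

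ATPsynE encodes subunit e of ATP synthase, a membrane subunit that in yeast and mammals helps ATP synthase form dimers, and lies on the plus strand of 3R from 14326947 to 14327735 (FBgn0038224). Its region spanned 14326894 to 14327153, with the summit 44 bp upstream of the nearest ATPsynE start. Here too that is the inner of 2 annotated starts, and the summit lay inside the gene. The pooled signal was 69.5, at rank 1287. It ranked 1004 in replicate 1, with a signal of 40.3, and 2346 in replicate 3, with a signal of 28.8. The order of the replicates was therefore the reverse of that at COX5A. The nearest start of another gene, Afti, lay 335 bp from this summit.

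**Figure D1:**
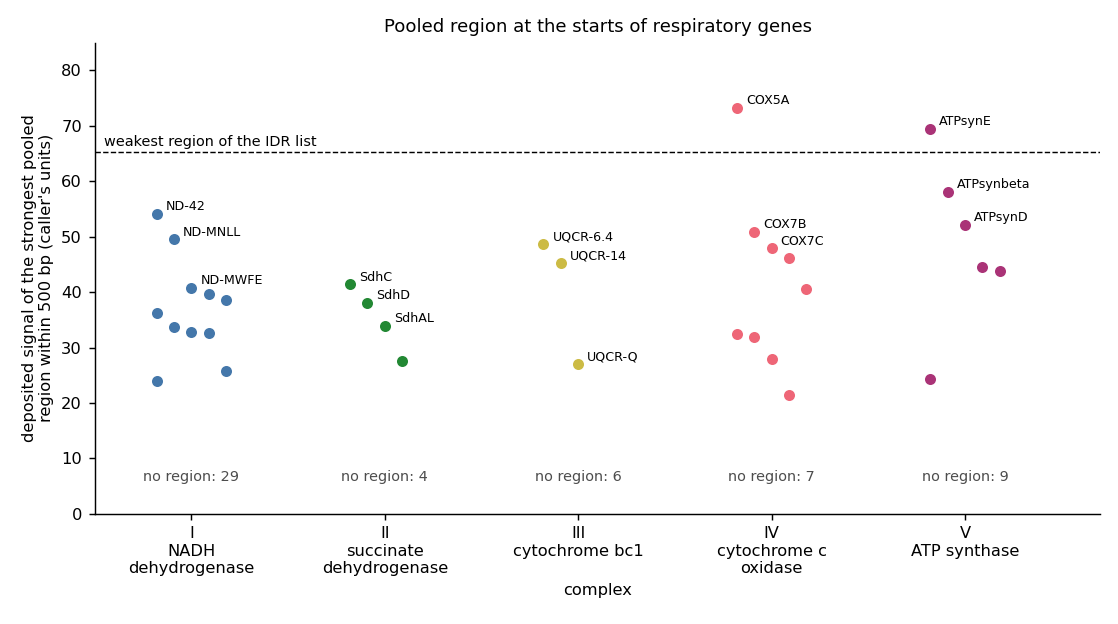
Deposited signal (y axis, caller's units) of the strongest pooled region within 500 bp of a start, for each gene with one, by complex (x axis). Each point is a gene, the 3 strongest of each complex are named, the dashed line is the weakest signal of the IDR list (65.3), and the number of genes without a region stands below. Only COX5A at 73.3 and ATPsynE at 69.5 lie above the line.

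In each replicate taken alone, 1 of these 2 genes was among the strongest regions. Among the 1476 strongest regions of replicate 1 were 3 members, ATPsynE, ATPsynC and ATPsynG, or 3.41% against 7.15% of all genes. Among those of replicate 3 were 2, COX5A and UQCR-14, or 2.27% against 6.53%. Either of these lists held 5 members, 5.68% against 9.78%, and 0 members were in both, against 3.9% of all genes. A count of 0 in 88 has an exact upper limit of 4.11%, above the share over all genes.

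ATPsynC encodes the c subunit of the rotating ring of ATP synthase, and had a strong region in only 1 replicate. Its strongest region ranked 1042 in replicate 1 with a signal of 39.7, 17810 in replicate 3 with a signal of 15.0, and 3439 in the pooled list. That of replicate 1 spanned 31219422 to 31219631 and that of replicate 3 spanned 31219488 to 31219747, so they overlapped only in part. ATPsynG encodes subunit g, a membrane subunit of the same enzyme. It ranked 1353 in replicate 1, 9286 in replicate 3 and 3578 in the pooled list, and the start of SCAR, a regulator of actin assembly, lay nearer to its summit, 99 bp away against 472 bp for ATPsynG. A weaker pooled summit, at rank 9760 with a signal of 30.3, lay 3 bp from the ATPsynG start. UQCR-14 encodes a small subunit of complex III, and ranked 1453 in replicate 3, 7399 in replicate 1 and 3318 in the pooled list.

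**Figure D2:**
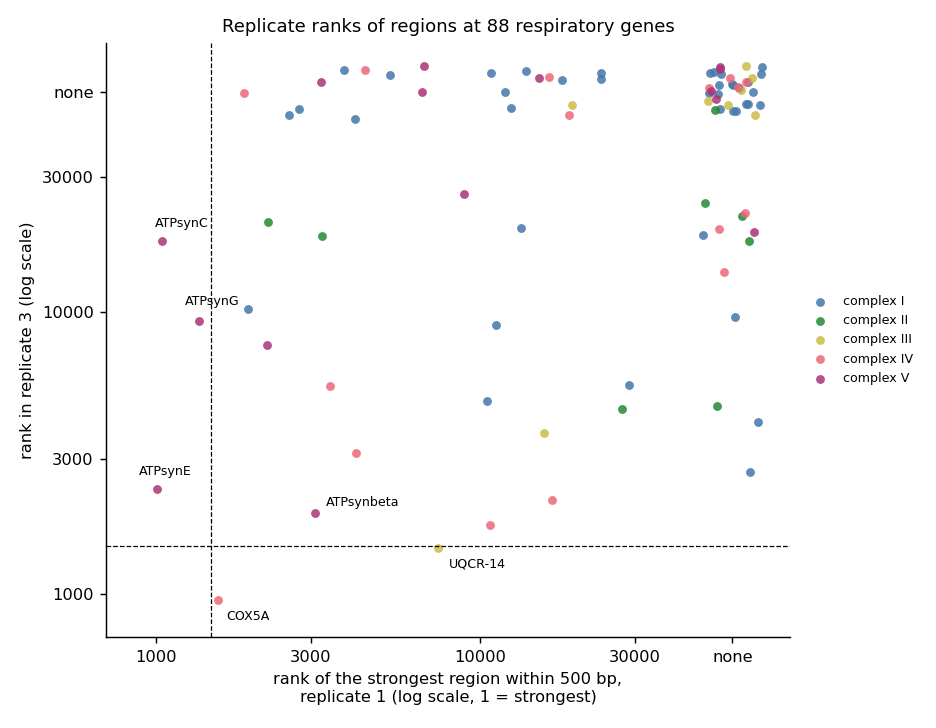
Rank of the strongest region within 500 bp of a start in replicate 1 (x axis) and replicate 3 (y axis), log scales with 1 the strongest, for the 88 genes coloured by complex. Genes without a region are placed, with random spread, at "none", and dashed lines mark rank 1476. No gene lies in the lower left corner, inside both lines.

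Lists of any rank, which include background regions, covered the respiratory genes about as often as other genes. A pooled region lay at 33 of the 88, 37.5% (27.4 to 48.5%) against 42.8% of all protein-coding genes. Replicate 1 had a region at 42, 47.7% against 45.6%, and replicate 3 at 33, 37.5% against 39.2%. Each replicate had a region at 21 genes, 23.9% against 27.3%, but the regions of the replicates need not overlap. At ND-B15, Sdhaf3, COX8 and ATPsynbetaL they did not. Of the rest, 21 had one in replicate 1 only, 12 in replicate 3 only and 34 in neither.

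The pooled list was also lengthened step by step from its strongest region downwards. Within the strongest 1000 regions were 0 members, against 4.74% of all genes. At 2000 regions 3.41% of members were called against 9.04%, at 2 times the length of the IDR list 9 members or 10.2% against 12.6%, and at 5000 regions 20.5% against 18.6%. The interval of the members held the share over all genes at 2000 regions (0.709 to 9.64%), at 2 times the IDR length (4.78 to 18.5%) and at 5000 regions (12.6 to 30.4%). At 250 and 500 regions the upper limit for 0 members, 4.11%, lay above the 1.08% and 2.24% of all genes. At 1000 regions it lay just under the 4.74% of all genes. At that length replicate 1 had 0 members against 4.86% of all genes. Replicate 3 had 1 member, 1.14% (0.0288 to 6.17%) against 4.48%.

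**Figure D3:**
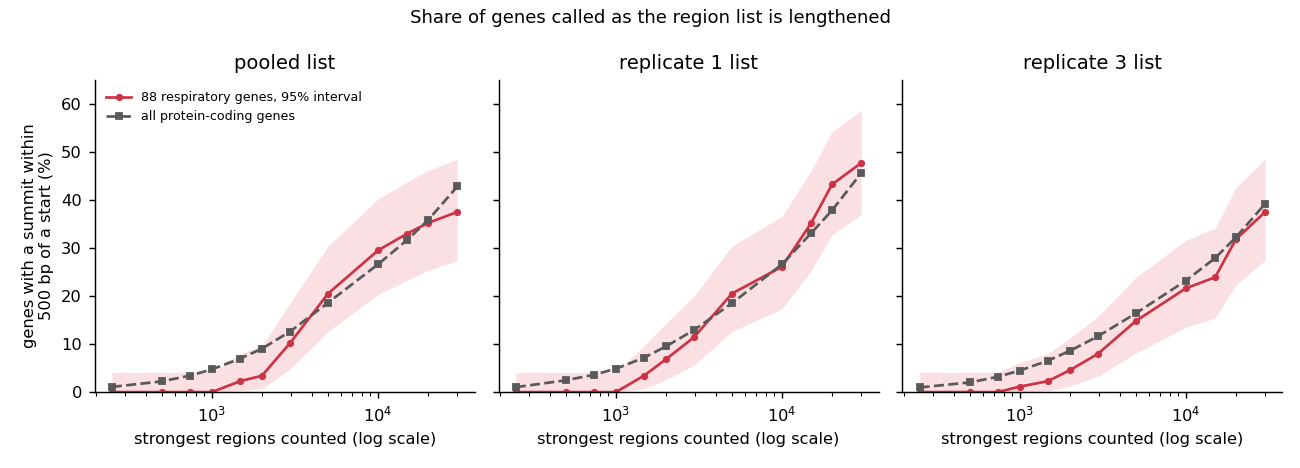
Share of genes with a summit within 500 bp of a start (y axis, %) among the strongest regions of each list (x axis, number of regions, log scale), for the 88 respiratory genes (red, shading 95% exact interval) and all protein-coding genes (grey). In the pooled list the members stay at 0 up to 1000 regions and lie at 20.5% against 18.6% at 5000.

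Where a member had a pooled region, that region was of middling strength. The 33 signals ran from 21.5 to 73.3 with a median of 39.6, and the ranks from 1125 to 26804 with a median of 4578, against a median rank of 6410 over all genes with a pooled region. The summit lay a median of 90 bp from the gene's start, against 109 bp over all genes, and 18 of the 33 lay within 100 bp (54.5% against 47.7%). It was upstream of the gene's nearest start or at it in 20 genes and downstream in 13. In genes with several starts an upstream summit can lie inside the gene, as at COX5A, ATPsynE, ATPsynbeta, ND-ASHI and ND-B22.

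ATP synthase held the strongest members beside complex IV. Of the 15 genes of complex V, 6 had a pooled region (40.0% against 42.8% of all genes), 10 had one in replicate 1 (66.7% against 45.6%) and 7 in replicate 3 (46.7% against 39.2%). The intervals of all 3 counts hold the share over all genes. ATPsynbeta, the catalytic subunit, was the strongest member outside the IDR list, with a signal of 58.1 at rank 1895, below the 65.3 of the weakest IDR region. It ranked 3085 in replicate 1 and 1933 in replicate 3, and its summit lay 3 bp upstream of a start on arm 4, a short arm on which the IDR list had no region. ATPsynD, a subunit of the stalk that holds the catalytic head, had a signal of 52.1 at rank 2390. Its summit lay 33 bp from its own start and 62 bp from that of mRpL55, which encodes a mitochondrial ribosomal protein, and a separate IDR region with a signal of 101.7 lay 1975 bp away.

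Complex IV had the highest share with a pooled region, 9 of 16 (56.2%, 29.9 to 80.2%), an interval that holds the 42.8% of all genes. After COX5A came COX7B, with a signal of 50.9 at rank 2505, and COX7C, with 47.9 at rank 2895. COX7B ranked 1756 in replicate 3 but 10731 in replicate 1, whereas COX7C ranked 4122 and 3151 in replicates 1 and 3. At both genes the start of a neighbour was nearer to the summit, that of Sec3 at COX7B and that of oys at COX7C. COX7AL2, a duplicate of COX7A, had an IDR region with a signal of 91.5 at 713 bp from its start, outside the window.

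Complex I had the lowest share with a pooled region, 11 of 40 (27.5%, 14.6 to 43.9%), and this interval includes 42.8%, the share over all genes. Replicate 1 had a region at 17 of the 40 (42.5%, 27.0 to 59.1%, against 45.6%). Replicate 3 had one at 9 (22.5%, 10.8 to 38.5%, against 39.2%), and both replicates had one at 5 (12.5%, 4.19 to 26.8%, against 27.3%). These last intervals end below the share over all genes, which was not tested. The strongest gene was ND-42, an accessory subunit, with a signal of 54.1 at rank 2216. It ranked 2759 in replicate 1 and had no region in replicate 3, and its summit lay 27 bp from the start of Cchl, cytochrome c heme lyase, and 368 bp from its own. ND-MNLL had a signal of 49.5 at rank 2662, and ND-MWFE one of 40.8 at rank 4281, 13 bp from the start of TppII and 234 bp from its own. ND-B22 had a pooled region of 32.8 at its start and an IDR region of 81.9 at 1861 bp. These are accessory subunits, which surround the core that carries out electron transfer and proton pumping.

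Complexes II and III are small, so their shares are wide. In complex II 4 of 8 genes had a pooled region (50.0%, 15.7 to 84.3%, against 42.8% of all genes), led by the membrane anchor subunits SdhC (41.4, rank 4123) and SdhD (38.1, rank 5090), and by SdhAL (33.9, rank 7043), a duplicate of the flavoprotein gene SdhA. Replicate 1 had a region at 3 of the 8 (37.5%, 8.52 to 75.5%, against 45.6%). Replicate 3 had one at 7 (87.5%, 47.3 to 99.7%, against 39.2%), an interval above the share over all genes, which was not tested. The SdhC summit lay 23 bp from the start of Tctp and 375 bp from its own, and a weaker one, at rank 8197 with a signal of 32.1, lay 43 bp from the SdhC start. In complex III 3 of 9 had one (33.3%, 7.49 to 70.1%): UQCR-6.4 (48.7, rank 2775), UQCR-14 (45.2, rank 3318) and UQCR-Q (27.0, rank 13916, with no region in either replicate).

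Duplicate-like genes are those whose symbol is that of another member with L or L and a digit added. A pooled region lay at 2 of 20, SdhAL and COX7AL2 (10%, 1.23 to 31.7%), against 42.8% of all genes, and at 31 of the other 68 members (45.6%, 33.5 to 58.1%). Those 68 include 4 members named like duplicates whose symbol without the ending is no member: COX6AL, COX6AL2, COX6CL and ATPsynepsilonL. Of these, COX6CL and ATPsynepsilonL had a weak pooled region, at ranks 26804 and 19131. A region in replicate 1 lay at 6 of the 20 (30%, 11.9 to 54.3%, against 45.6%) and one in replicate 3 at 5 (25%, 8.66 to 49.1%, against 39.2%), and both intervals hold the share over all genes. In the IDR list 0 of the 20 were bound, with an exact upper limit of 16.8% against 6.96% of all genes. The difference between duplicate-like and other members was not tested. Only 2 of the 20 (10%) had a start on the other strand within 500 bp, against 38 of the 68 others (55.9%).

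Respiratory genes often stood head to head with another gene. A coding gene on the other strand started within 500 bp of 40 of the 88 (45.5%, against 27.8% of all protein-coding genes). Of these 40, 22 had a pooled region (55.0%, 38.5 to 70.7%), against 54.4% of all genes with such a neighbour. Of the 48 without one, 11 did (22.9%, 12.0 to 37.3%), against 38.4% of all genes without one. All 9 members reached at 2 times the IDR length, COX5A and ATPsynE included, had such a neighbour. They are 22.5% of the 40, against 21.4% of all genes with such a neighbour, and 0 of the 48 others (exact upper limit 7.4%) stand against 9.24% of all genes without one. A summit between a pair of starts counts for both genes, and which gene it serves cannot be read from these lists.

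For 12 of the 33 members with a pooled region the start of another coding gene was nearer to the summit than their own, on the other strand in 11 of the 12. Their own start was the nearest in 21 (63.6%), against 82.4% of all genes with a pooled region. The 12 neighbours are Cchl, CG10151, TppII, RhoGAP68F, Tctp, CG46525, IFT52, CG33932, Sec3, oys, VhaM9.7-b and SCAR. When only summits nearest to the member's own start were counted, 23 members had a pooled region, 26.1% against 36.8% of all genes, and COX5A and ATPsynE were still called.

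**Figure D4:**
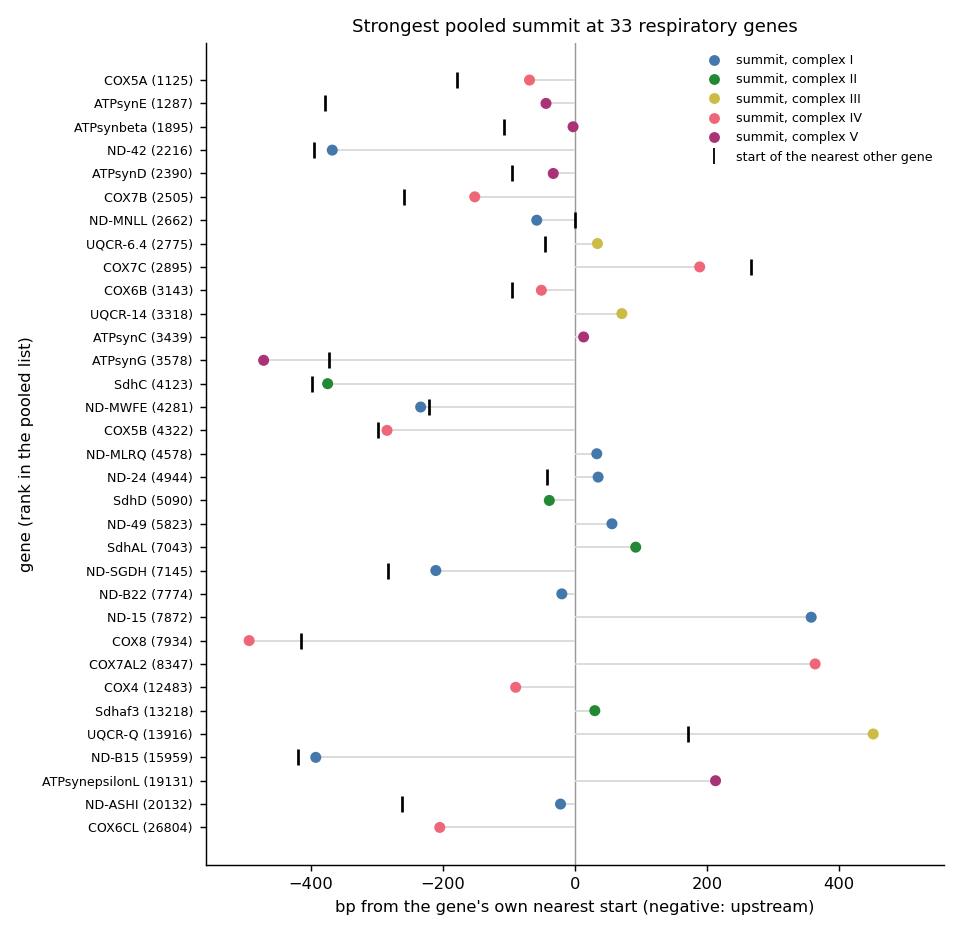
Position of the strongest pooled summit (points, coloured by complex) relative to the gene's own nearest start (0 on the x axis, bp, negative upstream) for the 33 genes with one, ordered by rank, which is given in brackets. Black ticks mark the start of the nearest other coding gene within 500 bp of the summit, present for 20 genes; in 12 of them the tick is nearer to the point than 0 is.

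Other gene lists of mitochondrial and energy metabolism gave the following counts in the IDR list, where 6.96% of all genes were bound. Of 6 further subunits and cytochrome c genes 1 was bound, levy, a subunit of complex IV, with a signal of 99.7 at rank 510. Of 10 assembly factors CIA30, which helps build complex I, was bound at rank 52 with 212.3, and of 13 carriers aralar1, which exchanges aspartate and glutamate across the inner membrane, at rank 8 with 345.0. The list of the TCA cycle and related enzymes had 2 of 17 (Idh and PCB), whereas Idh3a, Idh3b and Idh3g of that list had no IDR region. That of mitochondrial DNA and biogenesis had 3 of 18 (ERR, Lon and mtSSB) and glycolysis 3 of 13 (Eno, Ldh and Pgk). The intervals of these 6 lists are wide, from 1.46 to 36.4% for the TCA list and from 5.04 to 53.8% for glycolysis, and each holds 6.96%. Pooled regions of any rank lay at 12 of 17 genes of the TCA list (70.6%, 44.0 to 89.7%), an interval above the 42.8% of all genes. They lay at 5 of the 6 further subunits (83.3%, 35.9 to 99.6%). The intervals of the other lists hold 42.8% as well, with shares from 38.5% for carriers to 53.8% for glycolysis. The regions at levy, CIA30 and aralar1 were stronger than any at a member.

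The ribosomal protein genes, which are also short and widely expressed, had 9 of 73 bound for the mitochondrial ribosome (12.3%, 5.8 to 22.1%) and 14 of 92 for the cytoplasmic one (15.2%, 8.58 to 24.2%). Their lower bounds stand below and above 6.96%, the share over all genes. In the IDR list the interval of the respiratory genes, 0.276 to 7.97%, ended below that of the cytoplasmic list. It overlapped that of the mitochondrial one. The separation from the cytoplasmic list was not seen in both replicates when each was cut to the length of the IDR list. In replicate 1 the respiratory interval, 0.709 to 9.64%, overlapped the cytoplasmic one, 7.74 to 23.0%. In replicate 3 the respiratory interval, 0.276 to 7.97%, ended below the cytoplasmic one, 8.58 to 24.2%. Pooled regions of any rank lay at 70.7% of the cytoplasmic and 42.5% of the mitochondrial ribosomal genes, against 37.5% of the respiratory genes. These lists were chosen with results of these data known, and their differences were not tested.

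A feature that the respiratory genes share without reference to Jim is the NRG element, here TTATATAA, TTATGTAA, TTACATAA or TTACGTAA on either strand. In the 500 bases after the gene's 5′ end, 45 of the 88 had it (51.1%, 40.2 to 61.9%), against 5.64% of all protein-coding genes. It was present in 23 of 40 genes of complex I, 4 of 8 of complex II, 3 of 9 of complex III, 5 of 16 of complex IV and 10 of 15 of complex V. Of the 20 duplicate-like members 0 had it, with an exact upper limit of 16.8% on that share, against 45 of the other 68 (66.2%). The first site began 16 to 481 bases after the 5′ end, with a median of 230, and of the 49 sites 30 lay in introns and 19 in an exon of at least 1 transcript. This window was added after the promoter window had been searched. The words were searched because they are known from nuclear respiratory genes, so a high share among the members is not an independent finding.

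**Figure D5:**
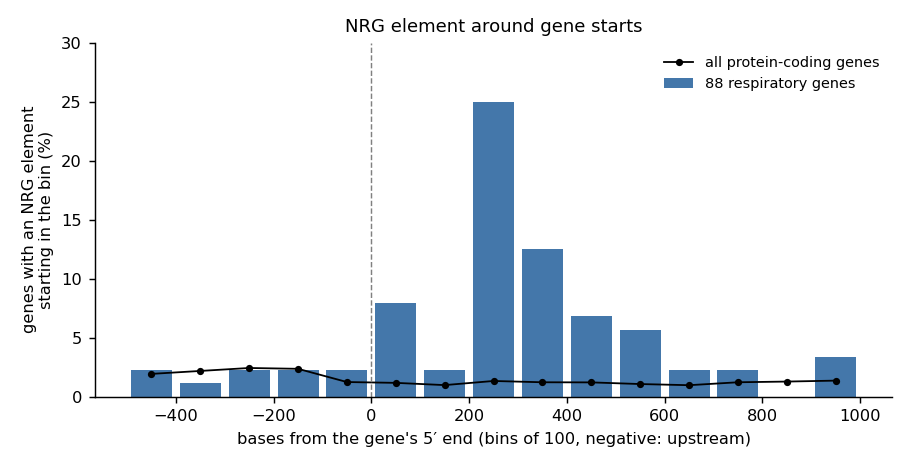
Share of genes (y axis, %) with an NRG element that begins in each bin of 100 bases around the gene's 5′ end (x axis, negative upstream), for the 88 respiratory genes (bars) and all protein-coding genes (line). The bin from 200 to 299 bases holds 25% of respiratory genes against 1.34% of all genes.

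Sites from all 5 complexes show the word in its setting, chosen after their positions were seen, most of them near the median distance. Each is given with 11 bases on either side, on dm6 and in the direction of the gene, and capitals mark the NRG element.
ND-51, chr2L:6062499-6062528, minus strand: atgccatcaaaTTATGTAAtttttgcgcaa
SdhD, chr3R:23760378-23760407, minus strand: aacagctttcaTTATATAAccaaaccgttt
UQCR-C1, chr3R:14890462-14890491, plus strand: gaggatttaaaTTACGTAAttgtaaatgat
COX7B, chr3L:17425683-17425712, plus strand: aaccttaaaaaTTACATAAtgtggataagc
ATPsynB, chr3L:9730218-9730247, plus strand: gacatcgtggtTTATGTAAtcaccacccat
ATPsynE, chr3R:14327257-14327286, plus strand: cggtcggacaaTTACATAActtgaagaaga
They begin between 204 bases (SdhD) and 321 bases (ATPsynE) after the 5′ end, and all but that of ATPsynE are intronic. Over all members 7 had an element that begins in the first 100 bases and 11 one in the bin from 300 to 399 bases.

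Over all members the element was about as frequent with a pooled region of any rank as without. It was present in 18 of the 33 members with one (54.5%) and in 27 of the 55 without (49.1%). Over all genes with and without a pooled region the shares were 6.58% and 4.94%. No duplicate-like member had the element, so among the other 68 it was present in 18 of the 31 with a pooled region and 27 of the 37 without. Neither difference was tested. Of the 49 sites after the start, 1 lay within 50 bp of a pooled summit, at UQCR-14, and the median distance from a site to the nearest pooled summit was 1818 bp. COX5A had no such word in this window.

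In the promoter window, from 250 bases before to 50 after the 5′ end, the 6 words searched were about as frequent in members as in all 13945 genes. The NRG element stood in 6.82% of members against 5.18%, the DRE in 10.2% against 9.36%, the E-box CACGTG in 4.55% against 4.2%, the GAGA word GAGAG in 22.7% against 29.7%, an A tract, a run of 8 A, in 21.6% against 16.0% and the forkhead word TGTTTAC in 7.95% against 9.19%. The share over all genes fell within the interval of the members for each of the 6. Duplicate-like and other members differed in some words, which was not tested. GAGAG stood in 9 of the 20 duplicate-like members (45.0%) and 11 of the other 68 (16.2%), and the DRE in 0 and 9 (13.2%). Of the 6 members with the NRG element in this window, 5 had a pooled region (ND-42, ND-49, ND-MNLL, ND-SGDH and Sdhaf3) and ND-30 had none. That is 15.2% of members with a pooled region and 1.82% of those without, against 5.01% and 5.31% over all genes.

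In windows of 101 bases at the 33 pooled summits, the NRG element was found at 2 and the DRE at 3. The shares were 6.06% (0.743 to 20.2%) against 0.889% of all pooled summits at coding genes, and 9.09% (1.92 to 24.3%) against 3.33%. The forkhead word stood at 6.06% against 3.19%, and the others were lower at members, with GAGAG at 9.09% against 16.3%, the A tract at 6.06% against 7.19% and the E-box at 0% against 1.41%. All 6 intervals hold the share over all summits. The windows that hold them, apart from that of ATPsynE given above, are shown because they are the places where a Jim summit and a word of respiratory or housekeeping promoters coincide. Capitals mark the NRG element at UQCR-14 and ND-MNLL and the DRE at COX4 and ND-ASHI, together with GAGAG at UQCR-14 and the A tract, read on the other strand, at ND-MNLL and ND-ASHI.
UQCR-14, chrX:16286309-16286409, plus strand: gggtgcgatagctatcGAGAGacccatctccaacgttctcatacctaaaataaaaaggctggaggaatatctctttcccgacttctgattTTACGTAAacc
ND-MNLL, chrX:7893806-7893906, minus strand: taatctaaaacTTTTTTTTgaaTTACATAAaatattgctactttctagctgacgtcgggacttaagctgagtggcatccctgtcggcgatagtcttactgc
COX4, chr2L:19958573-19958673, plus strand: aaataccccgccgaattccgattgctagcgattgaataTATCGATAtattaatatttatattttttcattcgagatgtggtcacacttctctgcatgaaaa
ND-ASHI, chrX:6678133-6678233, minus strand: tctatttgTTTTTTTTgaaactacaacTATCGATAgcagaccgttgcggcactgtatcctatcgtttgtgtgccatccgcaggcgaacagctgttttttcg
The summits at COX4 (28.0, rank 12483) and ND-ASHI (23.9, rank 20132) were weak.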

How the data were processed

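Regions came as narrowPeak lists on dm6, derived per the deposited text notes from the alignments of both replicates and a control. The region signal is a value deposited by the authors on the scale of their caller, and the other column used, the summit offset in bp, is likewise deposited by the authors. Aligner, caller and IDR threshold were not stated in these sources, and read depth is unknown, so precision rests on numbers of genes. Transcript starts came from Ensembl release 115 (BDGP 6.54), and sequence from the Release 6 genome of RefSeq, since no promoter table was at hand. Furthest region ends lay within the arms of that genome. 1 region on Y in replicate 3 was left out. The lists on dm3 served only to count regions on mitochondrial DNA, and no coordinate was converted.

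Calls were made over all 13945 protein-coding genes with Python 3.11.15, numpy 2.4.6, pandas 2.3.3 and scipy 1.17.1, with exact Clopper-Pearson intervals at 95%, and plotted with matplotlib 3.10.9. Calls were checked on planted regions, and a word search on simulated sequence of C and G with the NRG word TTACATAA planted. Searches for the DRE, E-box, GAGAG, A tract and forkhead words were not checked in this way. No test was run, because there is 1 group and members are not replicates. Members and lists were chosen with earlier results of these data known. Members named were those called in the IDR list or in the 1476 strongest regions of a replicate, the 3 with the highest pooled signal in each complex, and those with an IDR summit 500 to 2000 bp away. Others, named beside a word, a neighbour or a list, were chosen after their values were seen. Alternatives were other windows, starts, list lengths and replicates.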

Additional observations from a re-analysis of the deposited data

How the results depend on the processing

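The share of members in the IDR list stayed below that of all genes in all 11 alternatives. The count of 2 became 0 among the IDR regions above their median signal (against 3.43% of all genes) and 9 in a pooled list 2 times as long as the IDR list (against 12.6%), as shorter and longer lists must. It was 2 to 3 when either replicate was left out, and 3 with a window of 1000 bp or, as added after seeing the data, with 9 subunits outside the rule. The count of 33 members with a pooled region ran from 23 to 42 over 10 alternatives, with 33 to 42 when either replicate was left out. It was below the share of all genes in 7 of them and above it in the strongest 10000 regions, in replicate 1 alone and, as added later, without duplicate-like genes. In the 100 bases nearest the start, fewer promoters held each word, as a shorter window must give: 1.14% for the NRG element, 2.27% for the DRE, 1.14% for the E-box, 9.09% for GAGAG, 6.82% for the A tract and 2.27% for the forkhead word. In the 500 bases after the start, added later, the NRG share was 51.1%. The median distance to the nearest pooled summit was 1178 bp with every start and with 1 start per gene. No paired analysis was possible because there is 1 group and the calls come from no test. Read depth and the control are unknown here, so a gene without a region is not shown to be unbound.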

Other observations

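The nearest pooled summit lay a median of 1178 bp from a member's start, against 814 bp over all protein-coding genes, and the nearest IDR summit 32572 bp against 28583 bp, with no IDR summit on arm 4 for the 2 members there. Members were shorter than other genes, with a median length of 1097 bp against 2166 bp, and 53 of them (60.2%) had a single annotated start, against 73.5% of all genes.

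Some subunits of the respiratory chain are encoded in mitochondrial DNA, for which the dm3 lists held a few regions. The pooled dm3 list had 1, at rank 2347 with a signal of 52.5. Replicate 3 had 2, at ranks 1246 and 2403 with signals of 37.8 and 28.9, and replicate 1 and the IDR list had 0. The dm6 lists had 0 as well, and why the builds differ is not stated in these sources. These regions are therefore not shown to be Jim binding to mitochondrial DNA.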
